A study of Mus musculus with 7 samples.

Results

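The branched-chain amino acid breakdown genes were followed on arrays of the left ventricle of old male mice without eNOS and of wild-type males. The enzyme eNOS, the product of Nos3, makes nitric oxide in the endothelium. The members are 10 listed genes of the pathway, namely Bcat2, Bckdha, Bckdhb, Dbt, Bckdk, Ivd, Acadsb, Mccc1, Mccc2 and Hibadh, out of 12393 genes that had a probe set with a single gene name. All 10 were on the array, read by 12 probe sets, because Ivd and Hibadh had 2 each. A total of 11 of these probe sets, covering 9 genes, were bright enough to be tested. Mccc2 was not.

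The samples were 7 hearts, each hybridized to 1 single-colour MOE430A array. The labels give 3 eNOS (-/-) males, numbered M4, M10 and M140, and 4 eNOS (+/+) males, numbered M23, M125, M128 and M158, all aged 21 months. They give no strain, no construction of the null allele and no exercise state of any mouse, although exercise is a keyword. Per the labels, heart function declines and many knockout males die by this age, so that the knockouts sampled were survivors.

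Leucine, isoleucine and valine are broken down in mitochondria. Bcat2, the mitochondrial branched-chain aminotransferase, first turns them into keto acids, and the branched-chain keto acid dehydrogenase complex then decarboxylates these in an irreversible step. That complex is built from Bckdha and Bckdhb (its decarboxylase subunits), Dbt (its core acyltransferase) and Dld, and it is switched off by phosphorylation through the kinase Bckdk. After this step the 3 amino acids part ways. Ivd and the biotin enzyme made of Mccc1 and Mccc2 serve leucine, Acadsb serves isoleucine, and Hibadh serves valine. Heart muscle burns branched-chain amino acids as a minor fuel, and low expression of this pathway is a known feature of failing hearts.

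Across arrays the medians were 671 to 699 intensity units and the upper limits of the scale 44145 to 45552. No member reached the limit. The targeted gene did not check the labels: Nos3 read 1145, 1413 and 1135 on the knockout arrays and 791, 1163, 872 and 1058 on the wild-type arrays. Whether this probe set lies in the deleted stretch is not stated in the sources. Cardiomyocyte markers matched the labelled tissue: 6 of 7 sat at the limit of the scale on every array, and the other, Pln, at or just under it. Myl7, a light chain of atrial muscle, was high in knockout M10 (17557) and wild-type M125 (16097), lower in M128 (2926) and M4 (1207), and 356 to 407 elsewhere. The hearts were hybridized on 4 days. Knockout M140 and wild-type M128 shared day 1, the only day with both groups. M125 was alone on day 2, M4 and M10 were hybridized on day 3, and M23 and M158 on day 4.

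Most members read lower in the knockout hearts, but none passed the test across the table. Of the 11 tested probe sets, 9 had a lower knockout mean on the log2 scale, and the 2 exceptions were those of Bckdhb and Acadsb. The lowest log2 differences were those of Dbt at -0.57, Bcat2 at -0.48 and Bckdk at -0.43, that is, knockout levels 0.676, 0.719 and 0.74 times the wild-type level. By limma, with Benjamini-Hochberg adjustment over 13836 probe sets, 0 of 11 had an adjusted p under 0.05, as did 0% of all probe sets. The smallest adjusted p among them was 0.363. At an unadjusted p under 0.05, 4 of 11 were lower and 0 higher, against 5.25% lower and 6.57% higher over all tested probe sets. That count of 4 held without wild-type M128 (11.9% of all tested probe sets, either direction). In either direction it was 3 without knockout M10 (11.4%) or M140 (10.4%, with Acadsb, higher, among the 3). It was 2 without wild-type M23 (11.3%) and 1 without wild-type M125 (11.4%) or M158 (9.64%). Without knockout M4 it was 0, where the share of all probe sets also fell, from 11.8% to 5.8%. With hybridization day as a fixed block the estimate rests on M140 against M128, 1 mouse of each group, so that only log2 differences are given. For the probe sets in that count of 4 they were -0.36 (Bcat2), 0.18 (Dbt), 0.07 (Bckdk) and -0.36 (Hibadh 1435967_s_at). They were -0.84 for Bckdha, -0.68 for Mccc1 and -0.63 for Hibadh 1423780_at, which were not in that count. In whole ventricle a lower reading can mean fewer cells of a type or less RNA per cell, and these cannot be told apart.

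**Figure D1:**
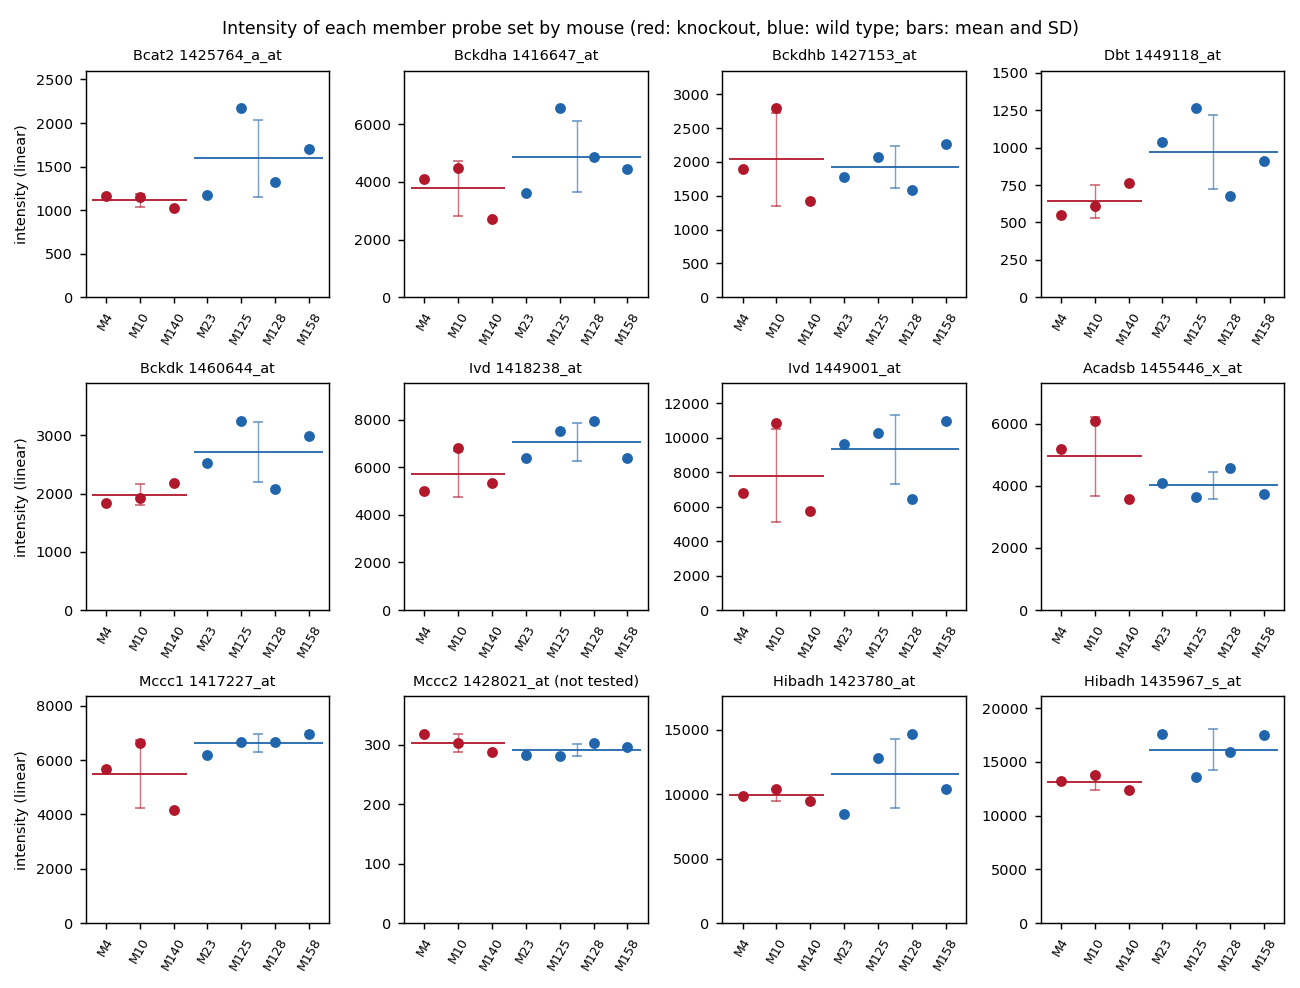
Intensity (linear scale, from 0) of each of the 12 member probe sets on each of the 7 arrays, with red points for knockout and blue for wild-type mice; the horizontal line is the group mean and the vertical bar its SD (n = 3 and 4). The groups lie apart for Bcat2 alone, and narrowly, while knockout M140 lies above wild-type M128 for Dbt and Bckdk.

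Bcat2 (probe set 1425764_a_at) read 1158, 1152 and 1022 on knockouts M4, M10 and M140. Its wild-type values were 1178, 2168, 1320 and 1706 on M23, M125, M128 and M158. Every knockout array thus lay below every wild-type array, with the highest knockout only just under the lowest wild type, M23. The group means were 1111 ± 76.9 (SD, n = 3) for the knockouts and 1593 ± 444 (SD, n = 4) for the wild types, so that most of the spread lay among the wild types. The log2 difference was -0.48 ± 0.20 (SE; 95% interval -0.94 to -0.02). Its adjusted p was 0.409 by limma, and the exact permutation test (two-sided) gave 0.114. Bcat2 was the 1 tested member probe set of 11 with groups apart, where 4.34% of all tested probe sets were apart in this direction and 4.97% in the other. Without wild-type M125, its highest array, the log2 difference was -0.32. Between knockout M140 and wild-type M128, hybridized on the same day, it was -0.36.

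Neither decarboxylase subunit of the dehydrogenase complex came near the threshold, and their difference from each other was not tested. Bckdha (1416647_at) read 4113, 4494 and 2696 on the knockouts and 3625, 6542, 4851 and 4437 on the wild types, in the same order of mice. The groups overlapped, with wild-type M23 below knockouts M4 and M10. Its log2 difference was -0.37, with a 95% interval of -0.94 to 0.20 and an adjusted p of 0.631 by limma. Without knockout M140 it was -0.14. Its partner Bckdhb (1427153_at) read 1891, 2790 and 1427 on the knockouts and 1774, 2077, 1582 and 2268 on the wild types. The knockout values thus reached both above and below all wild-type values, and the log2 difference was 0.04, with a 95% interval of -0.49 to 0.57. The sign depended on single arrays, at -0.21 without knockout M10 and 0.27 without knockout M140.

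Dbt, which carries the lipoyl arm of the complex, had the largest difference of the members. It (1449118_at) read 550, 607 and 766 on knockouts M4, M10 and M140, and 1035, 1262, 674 and 913 on wild-types M23, M125, M128 and M158. A single pair of arrays made the groups overlap, knockout M140 above wild-type M128. Knockouts averaged 641 ± 112 (SD, n = 3) and wild types 971 ± 245 (SD, n = 4). This gave a log2 difference of -0.57 ± 0.20 (SE; 95% interval -1.04 to -0.09). Its adjusted p was 0.363 by limma and 0.0857 was its exact permutation p, two-sided. Its readings lay between the 42.3 and 69.7 percentiles of the arrays, so that the offset shrinks this difference slightly: it was -0.58 with an offset of 1.

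The kinase of the complex leaned the same way as its core. Bckdk (1460644_at) read 1836, 1921 and 2184 on the knockouts against 2523, 3244, 2083 and 2998 on the wild types. Again only knockout M140 crossed a wild-type array, M128. Knockouts averaged 1980 ± 181 (SD, n = 3) and wild types 2712 ± 515 (SD, n = 4), so that the log2 difference was -0.43 ± 0.17 (SE; 95% interval -0.83 to -0.04). The adjusted p was 0.388 by limma and the exact permutation p 0.0857. The mean of this inhibitory kinase was thus lower together with those of Bckdha and Dbt, while that of Bckdhb was not.

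The values moved both ways within day 1, where knockout M140 was set against wild-type M128. The log2 difference was 0.18 for Dbt, 0.07 for Bckdk, -0.15 for Bckdhb and -0.36 for Acadsb, each opposite in sign to that over all arrays. It was further below 0 than over all arrays for Bckdha (-0.84), Mccc1 (-0.68) and Ivd 1418238_at (-0.57). The same held for Hibadh, at -0.63 on 1423780_at and -0.36 on 1435967_s_at. Dbt and Bckdk passed when limma's array weights were used, at adjusted p of 0.044 and 0.0481 and log2 differences of -0.71 and -0.57, in a fit in which 4.47% of all probe sets passed.

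**Figure D2:**
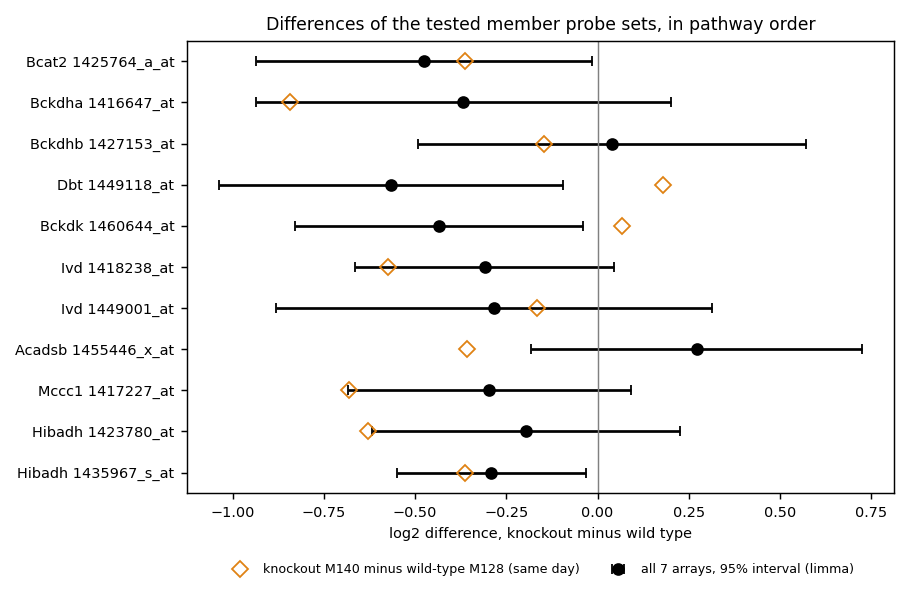
Log2 difference, knockout minus wild type, of the 11 tested member probe sets in pathway order; black points and bars are the estimate over all 7 arrays and its 95% interval by limma, and open diamonds are knockout M140 minus wild-type M128 of the same hybridization day. The intervals of Bcat2, Dbt, Bckdk and Hibadh 1435967_s_at lie below 0 before adjustment, and the diamonds of Dbt and Bckdk lie above 0.

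In the leucine branch, Ivd (isovaleryl-CoA dehydrogenase) was read by 2 probe sets that both leaned lower with overlapping groups. On 1418238_at the knockouts read 5001, 6805 and 5321 and the wild types 6370, 7532, 7928 and 6370. On this probe set knockouts M4 and M140 lay below every wild type, and M10 did not. Its log2 difference was -0.31 ± 0.15 (SE; adjusted p = 0.488 by limma). On 1449001_at the knockouts read 6793, 10870 and 5745 and the wild types 9660, 10277, 6443 and 10957. Here wild-type M128 was low, near knockouts M4 and M140, although it had been the highest array on the other probe set. The log2 difference was -0.28 ± 0.26 (SE; adjusted p = 0.738 by limma), and it was -0.55 without knockout M10 and -0.09 without knockout M140.

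Mccc1 (1417227_at), the biotin-carrying subunit of methylcrotonyl-CoA carboxylase, read 5664, 6618 and 4150 on the knockouts. Its wild-type values were the tightest of all tested members, at 6173, 6678, 6669 and 6953. Knockouts M4 and M140 lay below all wild types and M10 within them. Knockouts averaged 5478 ± 1245 (SD, n = 3) and wild types 6618 ± 325 (SD, n = 4). On the log2 scale they differed by -0.30 ± 0.17 (SE; adjusted p = 0.553 by limma, exact permutation p = 0.0571). The difference was -0.45 without knockout M10 and -0.11 without knockout M140. Mccc2 (1428021_at), its partner subunit, was dim on every array, between 280 and 318 units and at the 18.9 to 23.2 percentile. It passed the brightness filter on 0 arrays and was not tested. Its level therefore shows nothing about how this subunit differed between the groups.

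In the isoleucine branch, Acadsb (1455446_x_at, short/branched-chain acyl-CoA dehydrogenase) had the highest log2 difference of the members. It read 5195, 6079 and 3564 on the knockouts and 4103, 3636, 4573 and 3736 on the wild types. Knockouts M4 and M10 were above every wild type and M140 below every one. The log2 difference was 0.27, with a 95% interval of -0.18 to 0.73 and an adjusted p of 0.658 by limma. It was 0.11 without knockout M10, 0.49 without knockout M140 and -0.36 within day 1. A probe set of the x type can also bind related transcripts.

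In the valine branch, Hibadh (3-hydroxyisobutyrate dehydrogenase) was read by 2 probe sets. On 1435967_s_at, which stands for the gene in counts per gene, the knockouts read 13202, 13832 and 12402 and the wild types 17591, 13554, 15954 and 17539. Only wild-type M125 fell among the knockouts, below M10. Knockouts averaged 13145 ± 717 (SD, n = 3) and wild types 16160 ± 1896 (SD, n = 4), a difference of -0.29 ± 0.11 (SE; 95% interval -0.55 to -0.03) on the log2 scale. The adjusted p was 0.379 by limma and the exact permutation p 0.0857. On 1423780_at the knockouts read 9875, 10390 and 9466 and the wild types 8487, 12820, 14642 and 10390. There wild-type M23 was the lowest of all 7 arrays, whereas on the other probe set it was the highest. The log2 difference was -0.20 ± 0.18 (SE; adjusted p = 0.743 by limma). It was -0.33 without wild-type M23 and -0.07 without wild-type M128.

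The mice differed in how many members were low. Knockout M140 was the lowest array on 7 of the 11 tested probe sets and knockout M4 on 3. Knockout M10 was the lowest on 0 and the highest on 2. Wild-type M125 was the highest on 4. Over the 9 tested genes, each by its brightest probe set, the median deviation from the wild-type mean was -0.28 on M4, -0.08 on M10 and -0.41 on M140. On wild-types M23, M125, M128 and M158 it was -0.08, 0.17, -0.23 and 0.13. The groups therefore overlapped: M10 was level with M23 and above M128. The median log2 difference over the 9 genes was -0.30, against 0.00 over 8869 tested genes, and -0.29 with Mccc2 included. It was -0.45 without knockout M10, the array with the most Myl7, and -0.14 without knockout M140.

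Upstream sequence is shown for the members that had a probe set lower at an unadjusted p under 0.05 and an entry in the RefSeq promoter table (GRCm38.p6). Each is the 250 bases before an annotated start, 5′ to 3′ on the gene's strand. Capitals mark CCAAT, a box bound by NF-Y, and CACCC, a box bound by Krüppel-like factors, with each searched on both strands as ATTGG and GGGTG too.
Bcat2, chr7:45569903-45570152, plus strand: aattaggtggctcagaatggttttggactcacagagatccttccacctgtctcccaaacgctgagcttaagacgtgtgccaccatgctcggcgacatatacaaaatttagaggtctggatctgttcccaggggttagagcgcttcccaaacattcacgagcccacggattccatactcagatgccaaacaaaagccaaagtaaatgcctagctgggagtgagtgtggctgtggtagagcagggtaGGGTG
Bckdk, chr7:127903823-127904072, plus strand: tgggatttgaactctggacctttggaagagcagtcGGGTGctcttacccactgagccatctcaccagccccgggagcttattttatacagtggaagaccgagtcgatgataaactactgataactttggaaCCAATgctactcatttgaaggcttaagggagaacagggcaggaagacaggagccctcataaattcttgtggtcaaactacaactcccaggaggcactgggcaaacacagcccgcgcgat
Hibadh, chr6:52640301-52640550, minus strand: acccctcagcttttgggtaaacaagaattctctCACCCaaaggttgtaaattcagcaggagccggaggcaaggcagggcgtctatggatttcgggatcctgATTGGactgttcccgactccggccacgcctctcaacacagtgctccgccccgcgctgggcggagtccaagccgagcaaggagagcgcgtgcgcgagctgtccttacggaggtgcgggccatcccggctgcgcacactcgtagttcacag
The Bcat2 window, the first of its 2 annotated starts, held 1 CACCC match at its very end and 0 CCAAT matches. The window of its other start, not printed, held 0 of either. The windows of Bckdk and Hibadh held 1 of each. Dbt matched no entry. The 9 members in the table had 11 annotated starts, and 7 of these 11 windows held CACCC and 6 held CCAAT. Over all 32851 windows of that length, 52% held CACCC and 33.8% CCAAT, and a match is a description of the letters only.

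Of the 17 other branched-chain genes listed, 15 were on the array by a named probe set, and all 15 were tested. At the brightest probe set of each, 15 of 15 log2 differences were below 0, against 4489 of 8869 over all tested genes, and their median was -0.28. At an unadjusted p under 0.05, 2 were lower and 0 higher, where 5.4% and 6.77% of all tested genes were lower and higher. The groups were apart for 2, both lower, where 4.89% of all tested genes were apart in that direction and 5.29% in the other. None passed adjustment over all probe sets (smallest adjusted p 0.207 by limma). Mmab counted at -0.01, while its other tested probe sets 1435097_at and 1452467_at were at 0.04 and 0.03. Auh 1447952_at, not its brightest, was at 0.03. Without knockout M140, 13 of the 15 were below 0 and the median was -0.17. With hybridization day as a fixed block, 12 were below 0. Without knockout M10 the median was -0.36.

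Those with groups apart on any probe set, Mcee, Mmut and Acat1, act late in the pathway. Mcee (methylmalonyl-CoA epimerase, which serves valine and isoleucine) read 5056, 4690 and 4130 on the knockouts and 6301, 7650, 9919 and 8197 on the wild types. The groups were apart, with a log2 difference of -0.78 ± 0.17 (SE; adjusted p = 0.207 by limma). Mmut, the methylmalonyl-CoA mutase that acts next, differed by -0.35 on its brightest probe set 1448486_at (adjusted p = 0.522 by limma) and by -1.15 on 1416838_at (adjusted p = 0.195 by limma), where the groups were apart. On 1416838_at the knockouts read 1226, 1453 and 2235 and the wild types 2863, 3575, 3183 and 4774.

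Acat1, the mitochondrial thiolase that ends leucine and isoleucine breakdown and also handles ketone bodies, was read by 3 probe sets, and on each the knockouts lay below all wild types. On the brightest, 1424183_at, the knockouts read 10357, 11853 and 9888 and the wild types 13364, 14830, 13124 and 14575. The log2 differences were -0.39 on this probe set, -0.31 on 1424182_at and -0.70 on 1451271_a_at (adjusted p = 0.255, 0.357 and 0.209 by limma). Within day 1 they were -0.41, -0.37 and -0.56. Hsd17b10, an isoleucine-branch dehydrogenase, differed by -0.37 on 1448286_at and -0.43 on 1438391_x_at, the second with an unadjusted p of 0.0314 and an adjusted p of 0.379 by limma. Dld, the shared flavoprotein subunit of this complex and of pyruvate dehydrogenase, differed by -0.28 with overlapping groups (adjusted p = 0.579 by limma). Ppm1k, the phosphatase that opposes Bckdk, was not analysed here.

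Both chains of a cell surface carrier of branched-chain amino acids read higher on every knockout array than on any wild-type array, as did 4.97% of all tested probe sets. Slc3a2, the heavy chain, read 2401, 2580 and 2185 on the knockouts and 1555, 1965, 1550 and 1730 on the wild types. This was a log2 difference of 0.49 ± 0.13 (SE; adjusted p = 0.254 by limma). Its light chain Slc7a5 read 1482, 1483 and 1376 against 1247, 1302, 1254 and 1202, and differed by 0.21 ± 0.08 (SE; adjusted p = 0.378 by limma). Within day 1 the differences were 0.49 and 0.13. The mitochondrial carrier Slc25a44 differed by 0.10 and -0.23 on its 2 tested probe sets. Klf15, a factor known to control Bcat2, read 2068, 2875 and 1830 on the knockouts and 2311, 2873, 2382 and 2547 on the wild types, and differed by -0.18 with overlapping groups (adjusted p = 0.747 by limma).

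Mitochondrial gene groups close to the pathway also had median log2 differences below 0, and no test set the lists against each other. Among 13 beta-oxidation matrix enzymes and electron acceptors the median log2 difference was -0.24, with 6 lower and 0 higher at an unadjusted p under 0.05, where 5.4% and 6.77% of all tested genes were. Hadh and Hadhb counted by probe sets that read the upper limit of the scale on several arrays, at -0.06 and -0.04. Their other tested probe sets, below the limit, were at -0.82 (Hadh 1460184_at, groups apart) and -0.44 (Hadhb 1437172_x_at, groups overlapping). Etfa, Etfb and Etfdh, which take electrons from Ivd and Acadsb as well as from fat oxidation, differed by -0.15, -0.12 and -0.24. Etfdh had groups apart (adjusted p = 0.341 by limma). The pyruvate dehydrogenase complex, built on the same plan as the branched-chain complex, had a median of -0.19 over 4 tested genes. Among them was Dld, also counted with the other branched-chain genes. By array the median deviation was -0.12, -0.14 and -0.05 on knockouts M4, M10 and M140. On wild-types M23, M125, M128 and M158 it was -0.09, 0.003, 0.13 and -0.07. The groups thus overlapped, with M140 above M23 and M158. By their brightest probe sets, 0 of the 4 genes had an unadjusted p under 0.05. That 0 depended on the probe set: Pdhb 1448214_at (-0.41), Dlat 1426264_at and 1452005_at (-0.34 and -0.51) and Pdha1 1449137_at (0.36) had an unadjusted p under 0.05.

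**Figure D3:**
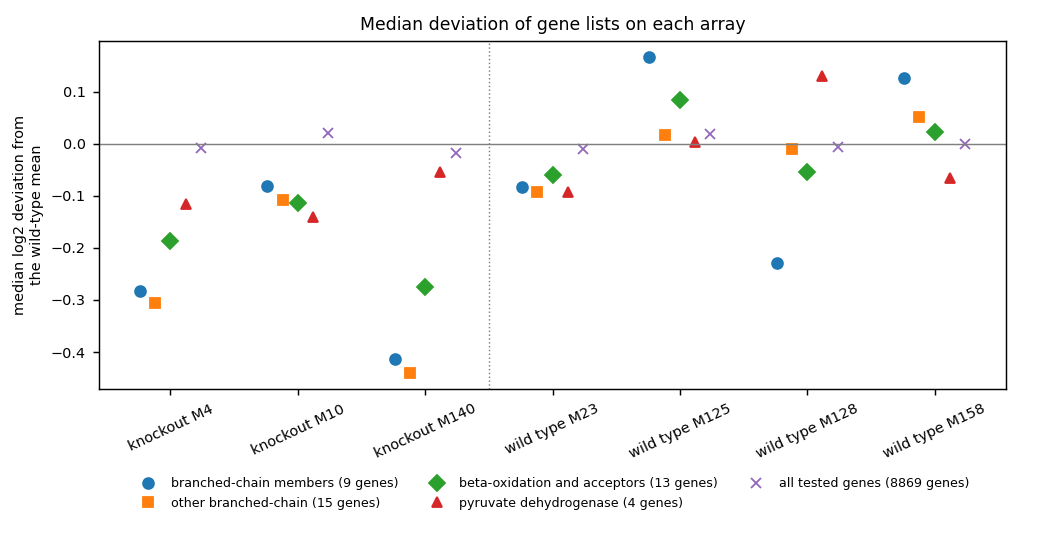
Median log2 deviation from the wild-type mean on each of the 7 arrays, for the 9 tested members, the 15 other branched-chain genes, the 13 beta-oxidation genes and electron acceptors, 4 pyruvate dehydrogenase genes and all 8869 tested genes. Knockout M140 is lowest for the members (-0.41) and for the other branched-chain genes (-0.44), and knockout M10 lies close to wild-type M23 on both.

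Summed marker levels of macrophages and of red cells did not overlap between the groups. The summed intensity of 5 macrophage markers was 17134 to 18647 on the knockout arrays and 12293 to 14430 on the wild-type arrays. The sum of 3 red cell markers was 4991 to 9788 against 3647 to 4487. Gene by gene, 4 of 5 macrophage markers and 2 of 2 tested red cell markers were apart and higher. Of all tested genes, 5.29% were. Adgre1 overlapped, and Csf1r made up most of the macrophage sum. Alas2 was the largest part of the red cell sum on the knockout arrays. Among 5 skeletal muscle markers the sums lay apart (10154 to 38181 against 4034 to 8004) through Acta1 alone, which heart muscle expresses too: it read 7285 to 35613 against 1315 to 5216, while Tnni2 and Actn3 overlapped. The sums of the 4 atrial, 4 adipocyte, 6 fibroblast, 6 endothelial and 3 hepatocyte markers overlapped between the groups. The atrial sums were 47537 to 71833 against 9349 to 74263. Of the atrial markers only Nppa had groups apart, at 37741 to 45540 against 6717 to 32820. On knockouts M4 and M140 Nppa read the upper limit of the scale. It made up most of the atrial sum on those arrays, where Myl7 read 1207 and 407. The fibroblast overlap came from knockout M10. Postn read 21455, 1684 and 37003 on M4, M10 and M140 and 2619 to 5504 on the wild types. Col3a1 read 17213, 1691 and 19869 against 4197 to 7594. Col1a1 and Pdgfra of M4 and M140 also lay above all wild types, while their Dcn and Lum lay within the wild-type range. Adipoq, Hba-a1, Tnnt3 and Myh4 stayed dim on all arrays. The part of other cells in the readings of the branched-chain genes was not tested. Without knockout M10 and wild-type M125, the arrays with most Myl7, the members' median was -0.36 and all 15 other branched-chain genes were below 0.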

How the data were processed

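The deposited table holds intensity values of 22690 probe sets on a linear scale. The authors had brought the arrays to nearly one level, from the values, and 49.9% of probe sets shared a value between 2 or more arrays. Software and background correction were not given in the sources used here. Hybridization days came from the deposited experiment sheets, which hold other text fields and no measurement per the file headers, and were coded 1 to 4 from the earliest. The 64 control probe sets were left out. A platform table named exactly 1 gene for 20380 probe sets, and 691 with several genes were not named.

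Values were taken as log2(intensity + 16), which makes differences of dim features look smaller. Testing required a level over the array's 40th percentile on 3 or more arrays, and 13836 probe sets met this. The groups were compared by limma 3.58.1 in R 4.3.3 (lmFit, eBayes with trend, two-sided, no covariate) with p-values adjusted over all tested probe sets (Benjamini-Hochberg). Groups are called apart where all knockout arrays lie above or all below the wild types. Exact permutation tests ran over 35 splits, with a smallest p of 0.0286. P-values measure the spread between 7 arrays, where mouse and day are mixed, and the number of arrays, 3 and 4, limits precision.

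When tested on simulated data for this comparison (13836 probe sets, of which 200 were changed), the fit recovered 17% of changes of 0.5 and 78.5% of changes of 1 on the log2 scale. The text names every probe set of the members, those other branched-chain genes and carriers at an unadjusted p under 0.05 or with groups apart, and in any case Dld, Ppm1k, Klf15, Etfa, Etfb, Etfdh and Nos3. Slc25a44, Hadh, Hadhb, the pyruvate dehydrogenase probe sets and the marker genes were named after their values were seen. Members and lists were chosen with earlier results of these data known.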

Additional observations from a re-analysis of the deposited data

How the results depend on the processing

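Over 19 alternatives, 198 of 209 single values of member probe sets kept their direction and stayed above an adjusted p of 0.05. Dbt and Bckdk passed with array weights (log2 -0.71 and -0.57). With hybridization day as a fixed block, which equals the difference within day 1, the sign turned for Acadsb (-0.36), Bckdhb (-0.15), Bckdk (0.068) and Dbt (0.18). Bckdhb also turned with array weights (-0.10), day as a random block (-0.002032), and without knockout M10 (-0.21), wild-type M128 (-0.05) or both M10 and M125 (-0.17); its range leaving out 1 array was -0.21 to 0.27. The cause was not tested.

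Member probe sets past the adjusted threshold numbered 2 with array weights and 0 under every other alternative, and 0 to 0 over single arrays left out. At an unadjusted p under 0.05 there were 4 over all arrays (11.8% of all probe sets), 7 with array weights (23.5%), 2 with day as a random block (11.4%), 2 without M10 and M125 (10.7%), and 0 to 4 leaving out 1 array: 0 without knockout M4 (5.8%), 1 without wild-type M125 (11.4%) or M158 (9.64%) and 2 without wild-type M23 (11.3%). Groups were apart for 2 with quantile normalization (12.1% of all), 4 without M10 and M125 (27.5%), 5 without M23 and M158 (28%) and 1 to 4 leaving out 1 array (21.9% of all without knockout M10). Of all tested probe sets 0 passed, against 619 with array weights, 2 without M10 and M125, 1 with the 60th percentile filter, with day as a fixed block or without M23 and M158, and 0 to 79 leaving out 1 array (79 without knockout M10, 27 without knockout M140). The members' median log2 difference stayed below 0, at -0.45 to -0.14 leaving out 1 array. For the 15 other branched-chain genes, alternatives were chosen after the data were seen, and their median was -0.42 with day as a fixed block, -0.36 to -0.17 leaving out 1 array. With day as a fixed block 12 of the 15 were below 0, and 13 to 15 leaving out 1 array. No paired analysis was possible because the groups share no mouse numbers.

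Among the members low signal kept only Mccc2 from being tested, while Dbt read as low as the 42.3 percentile, close to the filter at the 40th. In the simulation, which had no effect of day, changes of 0.5 on the log2 scale were mostly not recovered with 3 against 4 arrays.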
